A study of Mus musculus with 8 samples.

Results

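The cells described here are aged mouse stem cells of the long-term hematopoietic class (LT-HSC), split by whether a transcript of Vwf was counted in them. A cell was called Vwf+ when at least 1 Vwf transcript was among 2000 transcripts drawn at random from it, and Vwf- when none was. Of 728 cell barcodes in use, 497 cells held the 2000 transcripts needed. Of these, 136 cells (27.4%) were Vwf+ and 361 cells were Vwf-. The classes were chosen by the drawn Vwf UMIs alone, so Vwf's own level between them is a description and carries no test.

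RNA was measured with mCEL-Seq2, a plate method that tags the 3' end of each RNA with the barcode of its cell and a random molecular tag (unique molecular identifier, UMI), so that a UMI stands for 1 captured transcript. All cells were Lin-CD150+CD48-CD34-Kit+Sca1+ LT-HSC of untreated, wild-type male C57BL/6J mice 18 months of age, and were sorted as either Dlk1+ or Dlk1-. Each sort gave 4 libraries. Replicates 1 and 2 of each sort came from plate 5, and replicates 3 and 4 from plate 6. No label ties a library to an animal, so the p-values below take the library as the unit, and the spread between libraries may be technical.

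Vwf encodes von Willebrand factor, the adhesive protein that carries platelets to damaged vessel walls and is stored in megakaryocytes and endothelial cells. In mouse marrow, stem cells that express Vwf are known as a platelet-biased fraction, a fraction known to grow with age. Genes shared by such stem cells and megakaryocytes include Selp and Itga2b, and Pf4 marks the megakaryocyte lineage itself.

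The libraries held between 77742 and 496831 UMIs on their barcodes in use. Dlk1+ replicate 3 had 4 cells with 2000 UMIs, 3 Vwf+ and 1 Vwf-, and was left out of every comparison between the classes. The other 7 libraries gave 133 Vwf+ and 360 Vwf- cells. Stem cell markers were present in both classes: all 10 markers of the list, among them Procr, Hlf, Mecom, Fgd5, Slamf1, Ly6a, Kit, Esam and Mllt3, had UMIs in Vwf+ and in Vwf- cells. A single Vwf- cell held 2331 of the 2348 UMIs (drawn or not) of the granulocyte genes S100a8, S100a9, Ngp and Camp seen in Vwf- cells, and Vwf+ cells held 5. Without that cell the same 14 genes passed the test described below.

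Vwf was a sparse transcript. Among the 497 cells, 103 had 1 Vwf UMI, 27 had 2, 4 had 3 and 2 had 4. The cells just inside the threshold are thus the 103 with 1 UMI, and those just outside it have none. In cells with none, 96 (26.6%) had a Vwf UMI among the UMIs that had not been drawn. In cells with 1, 55 (53.4%) had another. The class is therefore an enrichment for Vwf transcripts, and the Vwf- class is not free of them. In each library the barcodes meant for the other sort, 768 in all, held 0 Vwf UMIs among 49641 UMIs, which allows up to 0.604 per 10000 (3 counts). Of these UMIs, 25978 lay on 10 barcodes of haemoglobin and liver transcripts in the Dlk1- libraries. Blank barcodes alone held fewer UMIs and so allow a higher level. The same 10 barcodes were left out of the Dlk1+ tables and are not among the 768. They held 14 Vwf UMIs there.

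The undrawn UMIs give a second reading of the same cells that did not choose the class. In them Vwf stood at 2.58 ± 0.71 per 10000 UMIs in Vwf+ cells and at 1.30 ± 0.38 in Vwf- cells (SD, n = 7 libraries). It was higher in Vwf+ cells in 7 of 7 libraries (two-sided exact sign-flip permutation test, p = 0.0156, the smallest that 7 libraries can give). Values in Vwf+ cells ran from 1.31 to 3.48 and in Vwf- cells from 0.599 to 1.87. The lowest, 0.599 in Dlk1+ replicate 1, lies under the 0.604 that the barcodes meant for the other sort allow. The ranges overlap through Dlk1+ replicate 2, where the values were 1.31 and 1.30 with 3 UMIs in each class.

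**Figure D1:**
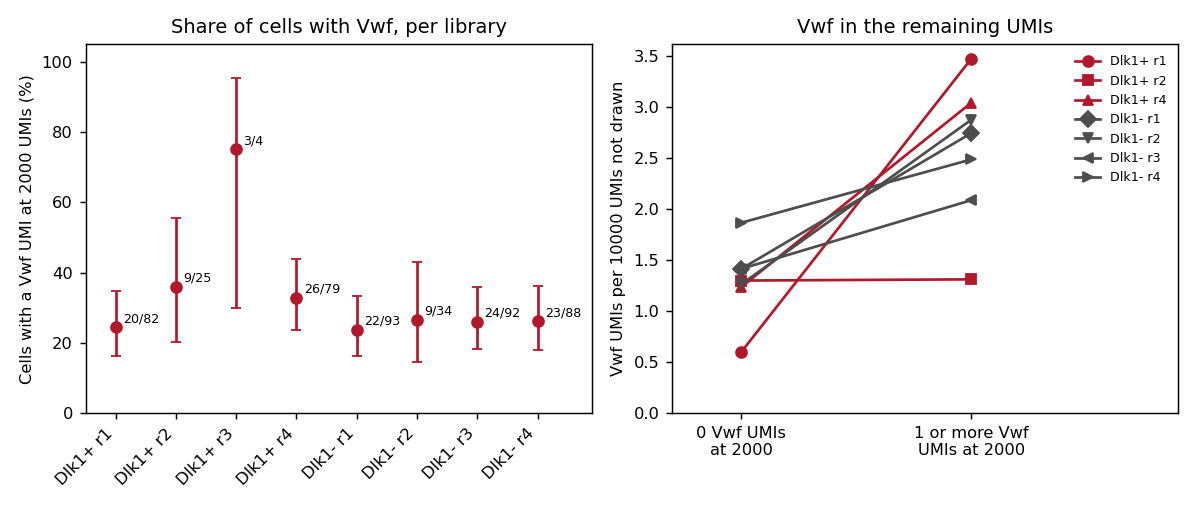
Left, the percent of cells with a Vwf UMI at 2000 UMIs in each library (points, with 95% Wilson intervals for counting error and the cell numbers beside them). Right, Vwf UMIs per 10000 undrawn UMIs in cells without and with a drawn Vwf UMI, 1 line per library, red for Dlk1+ and grey for Dlk1-; all 7 lines end higher, that of Dlk1+ replicate 2 by 1.30 against 1.31.

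The share of Vwf+ cells did not pass a test between the sorts. It was 24.4%, 36.0%, 75% and 32.9% in Dlk1+ replicates 1 to 4, against 23.7%, 26.5%, 26.1% and 26.1% in Dlk1- replicates 1 to 4. The 75% rests on 3 of 4 cells. The means were 42.1 ± 22.5% and 25.6 ± 1.3% (SD, n = 4 libraries each; two-sided exact permutation test, p = 0.114). On plate 5 the Dlk1+ values of 24.4% and 36.0% interleave with the Dlk1- values of 23.7% and 26.5%. On plate 6 both Dlk1+ values lie above both Dlk1- values. Without Dlk1+ replicate 1 the exact permutation p fell to 0.0286, the smallest that 3 libraries against 4 can give, and at 3000 UMIs a cell the difference was -0.363 percentage points.

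Dlk1 detection did not pass a test between the classes. A Dlk1 UMI was seen in 29.3 ± 28.7% of Vwf+ cells and in 29.1 ± 32.2% of Vwf- cells (SD, n = 7; exact sign-flip permutation test, p = 0.922, and 0.953 after Benjamini-Hochberg adjustment over 8 genes). The wide spread is that between the 2 sorts. The difference of the classes was 0.245 percentage points with an SD of 6.65.

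Between the classes, 1 gene was higher in Vwf+ cells and 13 were lower. UMIs were summed per library and class, and 599 genes with enough counts were tested by limma-voom with the library as a block and Benjamini-Hochberg adjustment, calling an adjusted p under 0.05. Limma-voom draws each gene's variance toward that of all genes tested, so its p-values do not rest on that gene's spread between libraries alone. The calls make up 2.34% of the genes tested, 0.167% higher and 2.17% lower. Without adjustment, 58 genes had a p under 0.05. The gene called higher was Clu. The 13 called lower were 6 loci with Gm names, 6 genes of the mitochondrial genome and Malat1, a nuclear long noncoding RNA. These calls depend on which UMIs were drawn: in 4 other random draws from the same cells, which share 85 to 96 of the 136 Vwf+ cells, 4 to 9 genes were called. Leaving out 4 cells of very high UMI number left 0 calls by limma-voom, with 57 genes at an unadjusted p under 0.05.

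**Figure D2:**
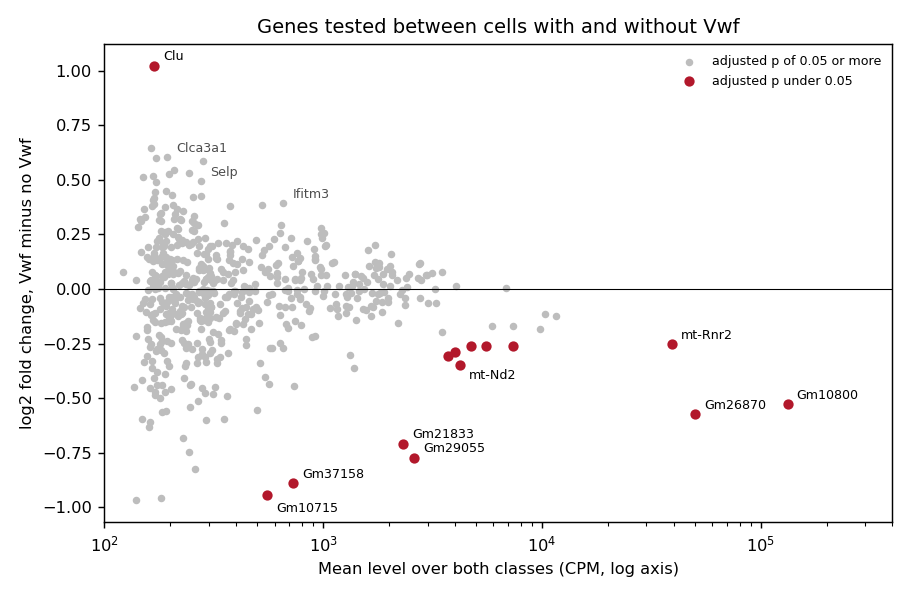
The log2 fold change of each of the 599 genes tested (Vwf+ over Vwf-) against its mean level in CPM (UMIs of the gene per 1e+06 UMIs, log axis), with the 14 genes past an adjusted p of 0.05 in red. Clu stands alone on the positive side at 1.02, and the 13 called genes below 0 include the most abundant ones.

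Clu encodes clusterin, a secreted chaperone that platelets store in their granules and a gene described as higher in aged stem cells. It lies at chr14:65968483-65981547 on the plus strand of mm10. Its level, as plain CPM of the summed UMIs, ran in Vwf+ cells from 159 to 389 CPM with a median of 196, and in Vwf- cells from 48.4 to 250 CPM with a median of 84.6. The ranges overlap, but within each of the 7 libraries the Vwf+ cells were higher. The log2 fold change, from values scaled by TMM factors, was 1.02 ± 0.28 (SE), with an adjusted p of 0.0304 by limma-voom.

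By cells, Clu was seen in 45 of 133 Vwf+ and 60 of 360 Vwf- cells. The share per library was 33.1 ± 7.3% against 19.3 ± 11.7% (SD, n = 7), higher in 6 of 7 libraries, which did not pass (exact sign-flip permutation test, p = 0.0625, and 0.25 adjusted over 8 genes). With all UMIs of the same cells summed, Clu was called again at 0.93 ± 0.19 (limma-voom, adjusted p = 0.00811). In the undrawn UMIs alone it was 0.77 ± 0.26 with an adjusted p of 0.237. A gene entered the test with 204 CPM in at least 4 of the 14 sums, and Clu did so with 3 Vwf+ sums and 1 Vwf- sum, thus mainly through the class where it was high. It was not tested in 14 of 34 alternatives, among them 3 of the 4 other random draws. The 1 other draw that tested Clu did not call it. A filter on the mean over all sums, which called 0 genes higher, did not test it either. Clu lost its call in 11 of the 20 alternatives that tested it and was above 0 in all 20. Leaving out Dlk1- replicate 2 gave an adjusted p of 0.0805 and leaving out Dlk1- replicate 4 gave 0.0769.

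The number of Vwf UMIs did not order Clu further. In cells with 0, 1 and 2 or more Vwf UMIs, Clu stood at 93.1, 221 and 210 CPM, from 67, 45 and 13 UMIs. Apoe, the lipid carrier apolipoprotein E, stood at 740, 951 and 1210 CPM, and the interferon-induced membrane protein gene Ifitm3 at 517, 701 and 968 CPM. These are sums over 360, 102 and 31 cells and carry no test.

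Platelet receptors gave no call. Of 18 receptors and surface proteins, all in the tables, 2 had enough counts to be tested, and 0 passed. Selp, the P-selectin gene, stood at 328 ± 142 CPM in Vwf+ cells and 223 ± 48 CPM in Vwf- cells (SD, n = 7), higher in 5 of 7 libraries. It ran from 111 to 538 CPM against 125 to 264 CPM, so the upper values of the Vwf+ cells exceed those of every Vwf- sum. Its log2 fold change of 0.49 ± 0.19 had an adjusted p of 0.213, and with all UMIs 0.55 ± 0.14 and 0.0681 (limma-voom). Selp was seen in 43.1 ± 15.6% of Vwf+ and 33.5 ± 8.7% of Vwf- cells, higher in 6 of 7 libraries (exact sign-flip permutation test, p = 0.0469, and 0.25 adjusted over 8 genes).

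With all UMIs, 8 of the 18 receptors could be tested and 0 passed. Their log2 fold changes ran from -0.19 to 0.55 with a median of 0.17, beside 0.03 over all 2436 genes tested in those sums.

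Itga2b and Pf4, the 2 marker genes named beside Vwf for these cells, did not pass a test between the classes. Itga2b encodes CD41, the alpha chain of the platelet fibrinogen receptor. It gave 21 UMIs in Vwf+ cells and 47 in Vwf- cells, too few for the test at 2000 UMIs a cell. It was higher in 3 libraries, lower in 3 and at 0 in both classes of the remaining one, Dlk1+ replicate 2. The cells with an Itga2b UMI were 10.7 ± 8.2% of Vwf+ and 8.1 ± 8.1% of Vwf- cells (SD, n = 7; exact sign-flip permutation test, p = 0.469, and 0.75 adjusted). With all UMIs its log2 fold change was 0.40 and its adjusted p 0.729 by limma-voom.

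Pf4, the platelet chemokine CXCL4, gave 2 UMIs in Vwf+ cells and 22 in Vwf- cells, 11 of the 22 in Dlk1- replicate 1. It was seen in 2 of 133 Vwf+ and 14 of 360 Vwf- cells. The shares per library, 3.2 ± 5.4% and 3.7 ± 2.8% (SD, n = 7), differed by less than their spread (exact sign-flip permutation test, p = 0.875, and 0.953 adjusted). The name platelet-biased was therefore not borne out by Itga2b or Pf4 here, and the cells are called by the Vwf rule alone.

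Markers of megakaryocytes were low in both classes. Over 9 of 10 such markers found in the tables (Pf4, Ppbp, Gp9, Gp1ba, Gp1bb, Gp5, Gp6, Treml1 and Itgb3), the summed level ran from 83.3 to 278 CPM in Vwf+ and from 60.0 to 296 CPM in Vwf- cells. It was higher in Vwf+ cells in 2 of 7 libraries. Ppbp, Gp1ba, Gp5 and Gp6 were at 0 in the 133 Vwf+ cells, and Gp6 was at 0 in the 360 Vwf- cells. Endothelial cells also make Vwf. Of 8 endothelial markers in the tables, Plvap, Flt1 and Stab2 were at 0 in Vwf+ cells, and Plvap and Stab2 in Vwf- cells. The 8 summed to 55 UMIs in Vwf+ and 104 in Vwf- cells, from 0 to 500.0 CPM against 20 to 217 CPM, and were higher in Vwf+ cells in 5 of 7 libraries. Its part in the results was not tested.

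Of the granule and secreted proteins, 3 of 14 in the tables were tested and 1, Clu, was called higher. Srgn, the core protein of granule proteoglycans, stood at 1510 ± 140 CPM in Vwf+ and 1272 ± 194 CPM in Vwf- cells (SD, n = 7), with a log2 fold change of 0.07 on the scaled values (limma-voom, adjusted p = 0.92). The platelet multimerin Mmrn1 was at 0.22 with an adjusted p of 0.891. Timp3, a metalloproteinase inhibitor, had 37 and 42 UMIs, and its values with all UMIs were 0.88 ± 0.25 and an adjusted p of 0.105. The list's median was 0.22, beside -0.01 over all 599 genes, of which 0.167% were called higher.

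Transcription factors of megakaryocytes and stem cells were well covered, 12 of 16 tested, and 0 passed. Of the 12, 10 had a log2 fold change above 0, and the range was -0.08 to 0.41 with a median of 0.14. Over all 599 genes tested, 290 were above 0 and the median was -0.01. None of these factors, 0 of 12, had an unadjusted p under 0.05 by limma-voom. The highest was Fli1, an ETS factor of megakaryocyte genes, at 0.41 (limma-voom, adjusted p = 0.678), and Etv6 followed at 0.36 (adjusted p = 0.592). Gata2 (0.09), Mef2c (0.16), Meis1 (0.21), Erg (0.14) and Ldb1 (0.07) lay nearer 0, as did Lmo2 (-0.01) and the NF-E2 subunit gene Nfe2 (-0.08). Gata1, which drives the megakaryocyte and red cell programmes, had 0 UMIs in Vwf+ and 2 in Vwf- cells. In the list of megakaryocyte cytoskeleton and signalling genes 5 of 14 were tested and 0 passed, Tln1 at 0.01, Bin2 at -0.02 and Tmsb4x at -0.16 among them.

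**Figure D3:**
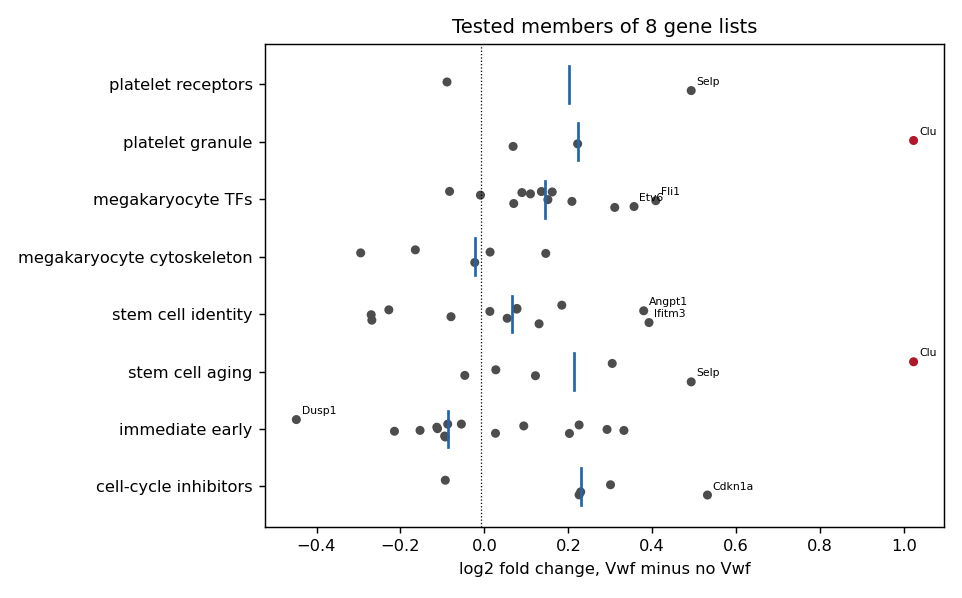
Log2 fold changes (Vwf+ over Vwf-) of the tested members of 8 gene lists, 1 point per gene, with the list's median as a blue bar and the median of all 599 genes as a dotted line. Clu, drawn in red in 2 lists, is the only member past an adjusted p of 0.05; the other points lie between -0.45 and 0.53.

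Genes described as higher in aged stem cells include Clu and Selp and so overlap the platelet lists. Of 32 in the tables, 6 were tested and 1, Clu, was called, beside 0.167% called higher over all 599 genes. Sult1a1, a sulfotransferase, was at 0.30 with an adjusted p of 0.695, the aldehyde dehydrogenase Aldh1a1 at 0.12 and Vmp1, an autophagy gene, at 0.03. With all UMIs 17 were tested and 1 was called, with a median of 0.17; over all 2436 genes in those sums 0.123% were called higher and 0.575% lower. Ehd3, a membrane traffic gene, stood at 0.66 there with an adjusted p of 0.102.

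Stem cell identity genes gave no call. Of 25, 12 were tested and 0 passed, with a range of -0.27 to 0.39 and a median of 0.07. Hlf, a stem cell transcription factor, was at -0.27 (limma-voom, adjusted p = 0.499) and the stem cell factor receptor Kit at -0.23 (adjusted p = 0.762). Tie1 was at -0.27, Ifitm1 at -0.08, Mllt3 at 0.08, Mycn at 0.18, Txnip at 0.01, Pdzk1ip1 at 0.05 and Tgm2 at 0.08. Ifitm3 was the highest, at 755 ± 109 against 561 ± 159 CPM (SD, n = 7) and 6 of 7 libraries, with 0.39 ± 0.14 and an adjusted p of 0.139. Angpt1, the ligand of the receptor Tek, was at 0.38 (adjusted p = 0.402).

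Several genes had a small unadjusted p and the same direction in at least 6 of 7 libraries without passing. Clca3a1, a surface protein of the CLCA family, stood at 253 ± 109 CPM in Vwf+ and 134 ± 93 CPM in Vwf- cells (SD, n = 7), higher in 7 of 7 libraries. It was at 0.60 ± 0.22 (limma-voom, adjusted p = 0.198) and passed with all UMIs at 0.58 ± 0.14 (adjusted p = 0.0455). The undrawn UMIs gave 0.52 with an adjusted p of 0.223. Apoe is not among these genes, as it was higher in 5 libraries and lower in 2 in the drawn UMIs, at 0.25 (limma-voom, adjusted p = 0.544). It passed with all UMIs at 0.41 (adjusted p = 0.0455) and in the undrawn UMIs at 0.47 (adjusted p = 0.0129). Apoe was added after its values were seen.

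**Figure D4:**
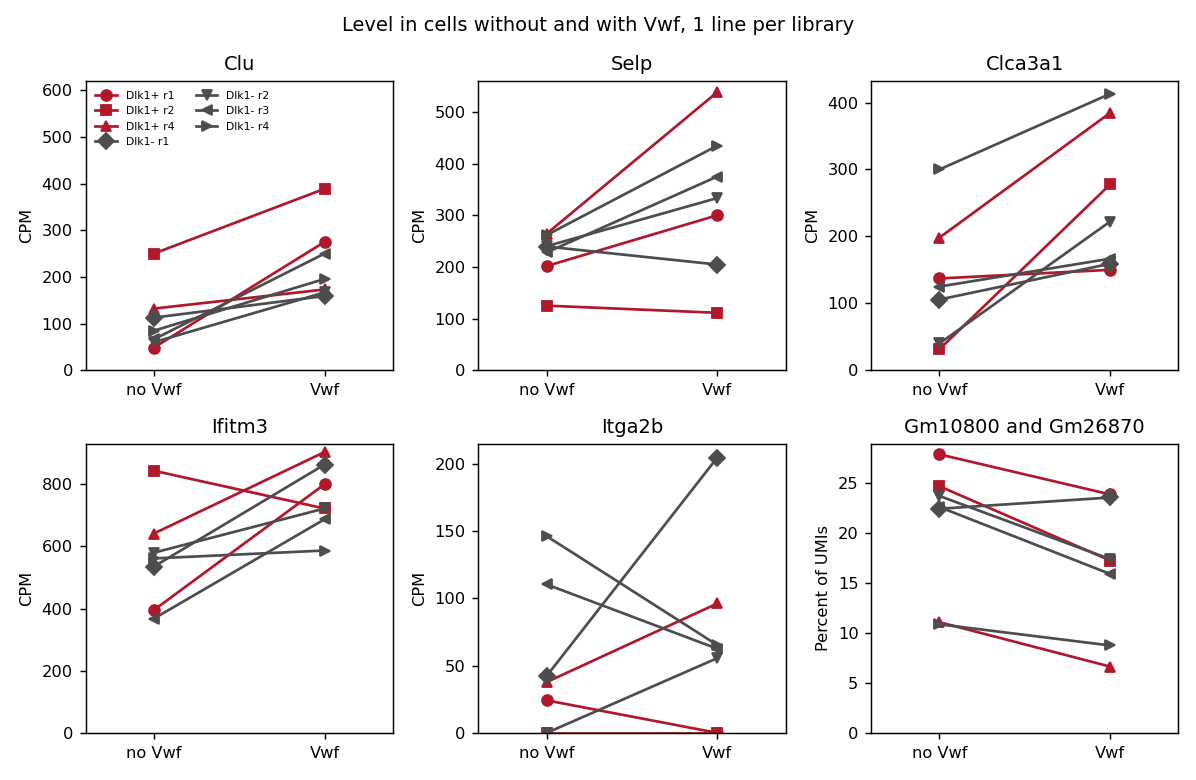
Levels in Vwf- and Vwf+ cells of each of 7 libraries (CPM of drawn UMIs, and percent of UMIs in the last panel), 1 line per library, red for Dlk1+ and grey for Dlk1-. All 7 lines rise for Clu and Clca3a1, 5 rise for Selp, 6 rise for Ifitm3, Itga2b has no common direction, and 6 fall for Gm10800 and Gm26870.

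The cold-shock protein gene Ybx3 was higher in 7 of 7 libraries in the drawn UMIs, at 372 ± 136 against 193 ± 89 CPM (SD, n = 7) and 0.59 ± 0.20 (limma-voom, adjusted p = 0.139). In the undrawn UMIs of the same cells it was at -0.27. The other genes of this kind were Nt5c3 (0.55), Ube2b (0.65), Cdkn1a (0.53), Treml2 (0.43), Stat3 (0.42), Ldha (0.38), Fosb (0.29) and the ribosomal protein pseudogenes Gm10036 (0.28), Gm10263 (0.26) and Gm8730 (0.23), whose reads cannot be told from those of their parent genes. Their adjusted p-values ran from 0.241 to 0.423. In the undrawn UMIs Nt5c3 was at 0.03, Ldha at 0.01, Ube2b at -0.08, Cdkn1a at 0.19, Treml2 at 0.18 and Stat3 at 0.15.

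The genes lower in Vwf+ cells were led by loci with Gm names, of which some lie in repeated sequence. Gm10800 (chr2:98666547-98667301) and Gm26870 (chr9:3000282-3038313) lie in satellite-like repeats, sequences repeated in tandem. Gm10715 (chr9:3036877-3038316) overlaps Gm26870 on the other strand. Reads from such repeats cannot be placed at 1 locus. Together Gm10800 and Gm26870 took 16.2 ± 6.6% of the UMIs of Vwf+ cells and 20.4 ± 6.7% of those of Vwf- cells (SD, n = 7), lower in 6 of 7 libraries. Dlk1- replicate 1 went the other way, at 23.5% against 22.4%. Their log2 fold changes were -0.53 ± 0.07 and -0.57 ± 0.07 (limma-voom, adjusted p = 5.92e-08 and 2.81e-08). These errors and p-values borrow the variance of the other genes tested and do not rest on the spread of Gm10800 and Gm26870 alone.

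Gm10715, Gm37158, Gm29055 and Gm21833 were lower in 7 of 7 libraries. Whether Gm37158, Gm29055 and Gm21833 hold repeated sequence was not tested. Gm10715 stood at 390 ± 125 against 716 ± 290 CPM (SD, n = 7), with a log2 fold change of -0.95, and Gm37158 at 539 ± 314 against 920 ± 367 CPM, with -0.89. Gm29055 was at -0.77 and Gm21833 at -0.71. RP23-341H2.4 (-0.96, adjusted p = 0.0671) and Gm17615 (-0.82, adjusted p = 0.0735) did not pass, and the latter did with all UMIs (adjusted p = 0.0221). In the undrawn UMIs all 6 called loci were called lower again, from -0.50 for Gm10800 to -0.98 for Gm37158. These UMIs come from the same cells, so they are not an independent repeat. The draw includes UMIs of Gm10800 and Gm26870, so a cell rich in them has fewer other drawn UMIs in which Vwf can be seen. A lower share of these loci in Vwf+ cells is thus partly built into the rule, by an amount that was not tested. The 6 loci passed in 23 to 29 of the 32 to 34 alternatives that tested them. In the 4 other random draws Gm10800, Gm26870, Gm29055 and Gm21833 passed each time, Gm37158 in 3 and Gm10715 in 2. With Gm10800 and Gm26870 taken out before the draw, Gm37158 (-0.80), Gm29055 (-0.62) and Gm21833 (-0.65) were called lower again and Gm10715 (-0.59, adjusted p = 0.206 by limma-voom) was not. Without the 4 cells of very high UMI number none of the 6 passed, with 0 calls in all.

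By cell medians, the share of Gm10800 and Gm26870 was 16.4 ± 7.0% against 17.7 ± 6.5% (SD, n = 7; exact sign-flip permutation test, p = 0.125, and 0.208 adjusted over 5 measures).

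The mitochondrial genes depend on the scaling. Of 15, 14 were tested and 6 were called lower, beside 13 of all 599 genes tested (2.17%). All 14 had a log2 fold change below 0, beside 309 of all 599. Their median was -0.25, beside -0.01 over all genes. The 6 were mt-Nd2 (-0.35), mt-Nd1 (-0.31), mt-Nd5 (-0.29), mt-Nd4 (-0.26), mt-Rnr1 (-0.26) and mt-Rnr2 (-0.25), subunits of respiratory complex I and the ribosomal RNAs of the organelle. Malat1 was at -0.26. As a plain percent of UMIs the mitochondrial genome took 11 ± 1.9% in Vwf+ and 11.4 ± 1.8% in Vwf- cells (SD, n = 7) and was higher in Vwf+ cells in 3 of 7 libraries. Scaled by library size alone, 0 of these 6 genes and Malat1 passed by limma-voom, and mt-Nd2 was at -0.19. In the 4 other random draws none of these 7 genes passed in any draw; mt-Nd2 ran from -0.21 to -0.02 there. In the undrawn UMIs mt-Nd2 was at -0.16 (limma-voom, adjusted p = 0.237), mt-Rnr1 at -0.01 (0.996) and Malat1 at -0.07 (0.751), and with all UMIs 1 of 15 mitochondrial genes, mt-Nd2, was called. Calls were also lost when single libraries were left out: Dlk1- replicate 3 for mt-Nd1 (adjusted p = 0.105), mt-Nd5 (0.152), mt-Nd4 (0.161) and Malat1 (0.215), and Dlk1+ replicate 1 for mt-Nd5 (0.109), mt-Nd4 (0.140), mt-Rnr1 (0.159) and Malat1 (0.169). The same held for Dlk1- replicate 2 with mt-Nd5 (0.0954) and mt-Rnr1 (0.114), and for Dlk1+ replicate 2 with mt-Rnr1 (0.111) and Malat1 (0.117). Without Dlk1- replicate 3, 9 genes were called in all by limma-voom.

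Ribosomal protein genes took 12.2 ± 1.5% of UMIs in Vwf+ and 11 ± 1.7% in Vwf- cells by cell medians (SD, n = 7), higher in 6 of 7 libraries, which did not pass (exact sign-flip permutation test, p = 0.0312, and 0.156 adjusted over 5 measures). Of 70 ribosomal protein genes tested, 0 passed, and the median log2 fold change was 0.03. Total UMIs before the draw, 12.2 ± 0.2 against 12.1 ± 0.3 on a log2 scale, and genes per cell at 2000 UMIs, 997 ± 64 against 969 ± 73, did not pass either (adjusted exact permutation p = 0.254 and 0.208). The mitochondrial percent by cell medians had an adjusted p of 0.453.

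Cell-cycle and stimulus genes showed no call at 2000 UMIs. Cyclins and cell-cycle inhibitors were tested for 5 of 14 genes, with a median of 0.23, Cdkn1a among them. Of the S-phase genes 1 of 18 was tested, Pcna, the sliding clamp of DNA replication, at -0.49 (limma-voom, adjusted p = 0.606), and of the G2 and M phase genes 0 of 18. With all UMIs 6 G2 and M phase genes were tested, all 6 below 0, and Hmgb2, a chromatin protein gene of dividing cells, was called lower at -0.75 ± 0.18 (adjusted p = 0.0455). Of all 2436 genes in those sums 1041 were below 0 and 14 (0.575%) were called lower. Its 31 drawn UMIs in Vwf+ and 116 in Vwf- cells were higher in 3 and lower in 4 libraries. Of 15 tested immediate early genes 0 passed, with Fos at -0.15, Jun at -0.09 and Dusp1 at -0.45.

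The difference between the classes was itself compared between the sorts. By an interaction term in the same limma-voom fit, 0 of 599 genes (0.0%) passed, and 32 had an unadjusted p under 0.05. For the tested genes, a difference between the Dlk1+ and the Dlk1- cells in what goes with Vwf was not detectable in these 3 and 4 libraries.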

How the data were processed

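Each of 8 libraries (4 Dlk1+, 4 Dlk1-) had 1 table of estimated counts per gene symbol and barcode, which the authors deposited after correcting for UMI collisions; BWA 0.6.2-r126 and mm10 are named in the submitters' processing notes. Annotation and read filters are not given in the sources used here. The other unit used, whole UMIs, was recovered here from the deposited values by undoing the correction over 4096 UMI sequences, and no value was further than 3.64e-12 from a whole number. Own-half barcodes (1-96 in Dlk1+ tables without 10 left out by the rule, 97-192 in Dlk1- tables) were used, and libraries of 1 sort share all their barcode names by design. Cells were thinned to 2000 UMIs with a fixed seed, and UMIs were summed per library and class in the 7 libraries with at least 5 cells in each class, giving 14 sums of 18000 to 142000 UMIs. Genes needed the CPM of 10 counts at the median sum (204) in at least 4 sums and a total of 15. The test was limma-voom (limma 3.58.1, R 4.3.3) with library as a block and TMM factors over the filtered genes; a count test had been planned for tables that could be read as counts. These factors replaced factors over all genes after a first fit had been seen; both are given below. They are 0.17 higher (log2) in Vwf+ sums, which lowers scaled fold changes against plain CPM. Measures used exact sign-flip or permutation tests. The fit was tested on simulated data. Named genes were Pf4, Itga2b, every called gene up to 15 per direction, the genes of smallest p up to 15 with that direction in at least 6 libraries, and members of 6 lists with at least 200 drawn UMIs; some of these are not reported here. The members and lists were chosen with earlier results of these data known. Coordinates are from GENCODE vM21. Promoter sequences of Vwf and Clu are not used here. Doublets were not called; cells of very high UMI number were left out as an alternative. Intervals cover counting error only.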

Additional observations from a re-analysis of the deposited data

Results flagged for a closer look

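A library stood far from its group in 5 of 32 sets of values, and how many chance alone would give was not tested. The sets share cells and libraries, so the 5 are not independent and their number carries no test. The share of Vwf+ cells in Dlk1- replicate 1, 23.7%, was lowest and apart from the other 3 Dlk1- libraries at 26.1% to 26.5%. In the same library the median share of Gm10800 and Gm26870 was 2.38 percentage points higher in Vwf+ cells, apart from the other libraries. The share of cells with Procr, the endothelial protein C receptor of stem cells, was lower by -26.4 percentage points in Vwf+ cells of Dlk1+ replicate 2, which has 9 Vwf+ and 16 Vwf- cells. The difference in Gm10715 was largest in Dlk1- replicate 2 at -776 CPM, and that in Gm21833 in Dlk1+ replicate 1 at -1969 CPM.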

How the results depend on the processing

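The count of calls moved by over 1.5 times in 20 of 34 alternatives. In the other 14 it stayed nearer 14, as with 15 within Dlk1- and with the filter on the mean, 16 with equal cell numbers and 17 with all UMIs. Against 14 calls in the report, the total was 18 with library size only (12 higher, 6 lower, with the median of all genes at 0.14 in place of -0.01). It was 5542 with no filter, 5431 of them higher. The replicate block is the library: both classes of a library share its cells' origin, and with no replicate block 0 genes passed by limma-voom and 32 had an unadjusted p under 0.05. It was 7 with all 8 libraries, 5, 4, 8 and 9 in the other random draws, 0 at 1000 UMIs a cell (6 libraries, 14 at an unadjusted p under 0.05) and 4 at 3000. It was 5 with at least 2 Vwf UMIs against none (at least 3 cells per class in place of 5), 5 without Gm10800 and Gm26870, 0 without 4 cells of very high UMI number (57 unadjusted), 5 within Dlk1+, 8 within plate 5 and 7 within plate 6. Leaving out 1 library gave 9 to 16; 9 was without Dlk1- replicate 3. TMM over all genes, the first fit, gave 69 (1 higher, 68 lower, with the median of all genes at -0.22). The TMM factors behind the 14 calls replaced it after that fit had been seen. Of alternatives chosen after the data were seen, limma-trend gave 7 and cells of low repeat share 0 (30 unadjusted). Leaving out the mitochondrial genome with Gm10800 and Gm26870 gave 0 (79 unadjusted). Each count is from limma, and the cause was not tested. DESeq2 was not run.

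The difference in the share of Vwf+ cells was -0.363 percentage points at 3000 UMIs and ran from 5.51 to 22.4 when 1 library was left out. The log2 total UMIs differed by -0.0082 in random draw 3 and the mitochondrial percent by 0.0857 in random draw 2. Of the differences in shares of cells, Pf4 was at 2.12, Dlk1 at -4.71, Selp at -3.03 and Cd34 at 3.12 at 1000 UMIs, and Itga2b at -0.179 and Procr at -1.40 at 3000 UMIs. Dlk1 was at -0.236 and Cd34 at 2.95 in random draw 5. Leaving out 1 library, Pf4 ran from -2.42 to 0.607, Dlk1 from -0.899 to 1.93 and Procr from -0.70 to 5.22. Vwf in the undrawn UMIs passed in all 11 alternatives.

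No named gene was called in opposite directions by 2 settings; of the 14 called genes, mt-Rnr1 and Malat1 changed sign once each, without passing there. Log2 fold changes changed sign, as follows; the cause was not tested. In the undrawn UMIs, the values were -0.27 for Ybx3, -0.034 for Gm10263, -0.082 for Ube2b, -0.074 for Angpt1, 0.043 for Nfe2, 0.030 for Lmo2, -0.088 for Erg, 0.020 for Bin2, 0.0052 for Kit, 0.26 for Ifitm1 and 0.23 for Tie1. Without Gm10800 and Gm26870, the values were -0.036 for Gm10036, 0.00021 for mt-Rnr1, 0.039 for Bin2, 0.025 for Tmsb4x and 0.054 for Tie1. In random draw 2, the values were -0.063 for Gm10263, -0.0046 for Treml2, -0.040 for Gata2, 0.29 for Nfe2, -0.38 for Etv6, 0.023 for Lmo2, -0.17 for Erg, 0.089 for Bin2, 0.19 for Tmsb4x, 0.057 for Kit, 0.011 for Tie1, -0.075 for Pdzk1ip1 and -0.11 for Tgm2. At 1000 UMIs a cell, the values were -0.068 for Gm10263, 0.14 for Tmsb4x and 0.15 for Ifitm1. At 3000 UMIs a cell, the values were -0.21 for Ube2b, -0.013 for Gm8730, 0.10 for Lmo2, -0.012 for Tln1, 0.0097 for Bin2, 0.23 for Tmsb4x, 0.14 for Hlf, -0.29 for Mllt3, 0.042 for Ifitm1 and -0.032 for Txnip. In random draw 3, the values were -0.034 for Angpt1, -0.030 for Stat3, 0.0057 for Lmo2, -0.11 for Tln1, 0.11 for Tmsb4x, -0.017 for Mycn, 0.031 for Tie1, -0.023 for Txnip and -0.082 for Tgm2. In random draw 5, the values were -0.077 for Angpt1, -0.22 for Treml2, -0.080 for Gm8730, -0.22 for Meis1, 0.19 for Lmo2, -0.16 for Erg, -0.15 for Tln1, 0.064 for Bin2, 0.20 for Tmsb4x, -0.11 for Txnip, -0.037 for Pdzk1ip1 and -0.097 for Sult1a1. Without cells of very high UMI number, the values were -0.052 for Stat3, -0.011 for Gata2, -0.018 for Etv6, 0.065 for Lmo2, 0.13 for Ifitm1 and 0.25 for Tie1. Without Gm10800, Gm26870 and the mitochondrial genome, the values were 0.10 for Malat1, 0.0033 for Nfe2, -0.076 for Mef2c, 0.070 for Lmo2, -0.086 for Erg, 0.045 for Tmsb4x, -0.19 for Mllt3, 0.033 for Kit, 0.15 for Ifitm1, 0.061 for Tie1 and -0.080 for Pdzk1ip1. In random draw 4, the values were -0.049 for Srgn, 0.20 for Nfe2, 0.046 for Lmo2, 0.12 for Kit, 0.16 for Tie1 and -0.21 for Txnip. Within Dlk1- libraries, the values were -0.032 for Srgn, -0.014 for Gata2, 0.10 for Bin2, -0.027 for Mllt3, 0.12 for Ifitm1 and -0.092 for Tgm2. Within plate 6, the values were -0.0089 for Srgn, -0.10 for Mef2c, -0.19 for Tln1, 0.064 for Ifitm1, -0.12 for Pdzk1ip1, -0.13 for Tgm2 and -0.22 for Vmp1. With TMM over all genes, the values were -0.14 for Srgn, -0.12 for Gata2, -0.055 for Mef2c, -0.00037 for Meis1, -0.14 for Ldb1, -0.079 for Erg, -0.19 for Tln1, -0.14 for Mllt3, -0.015 for Mycn, -0.21 for Txnip, -0.15 for Pdzk1ip1, -0.12 for Tgm2 and -0.19 for Vmp1. In cells of low repeat share, the values were -0.091 for Srgn, -0.045 for Gata2, -0.13 for Tln1, 0.16 for Ifitm1 and -0.21 for Pdzk1ip1. With at least 2 Vwf UMIs against none, the values were -0.26 for Gata2, 0.013 for Lmo2 and 0.15 for Bin2. With library size only, the values were 0.072 for Nfe2, 0.13 for Lmo2, 0.13 for Bin2 and 0.073 for Ifitm1. With all UMIs summed, the values were 0.037 for Nfe2, 0.049 for Lmo2, 0.014 for Bin2, 0.14 for Ifitm1 and 0.056 for Tie1. Within Dlk1+ libraries, the values were 0.013 for Nfe2, -0.12 for Erg, -0.028 for Tln1, 0.028 for Tie1, -0.33 for Txnip, -0.25 for Pdzk1ip1, -0.096 for Sult1a1 and -0.025 for Vmp1. Within plate 5, the values were 0.43 for Nfe2, 0.030 for Lmo2, 0.095 for Bin2, -0.056 for Mycn, -0.052 for Txnip and -0.13 for Sult1a1. With equal cell numbers, the values were 0.036 for Nfe2, -0.014 for Tln1, -0.044 for Pdzk1ip1 and -0.22 for Vmp1. With all 8 libraries, the values were 0.00077 for Lmo2, -0.055 for Ldb1, -0.017 for Tln1, -0.055 for Mllt3, -0.054 for Txnip and -0.070 for Vmp1. With limma-trend, the values were 0.074 for Lmo2, -0.094 for Ldb1, -0.0069 for Tln1, -0.17 for Mllt3, -0.026 for Mycn and -0.20 for Txnip. With no replicate block, the values were -0.038 for Ldb1, -0.029 for Tln1, -0.15 for Txnip and -0.14 for Vmp1. Against cells with no Vwf UMI at all, the values were -0.043 for Tln1, -0.076 for Txnip and -0.018 for Tgm2. With no filter, the value was -0.0053 for Txnip. Leaving out 1 library, log2 fold changes ran from -0.25 to 0.085 for Nfe2, from -0.020 to 0.28 for Mef2c, from -0.071 to 0.070 for Lmo2, from -0.067 to 0.12 for Tln1, from -0.15 to 0.12 for Bin2, from -0.073 to 0.22 for Mllt3, from -0.16 to 0.083 for Ifitm1, from -0.067 to 0.10 for Txnip, from -0.10 to 0.21 for Pdzk1ip1, from -0.094 to 0.17 for Tgm2 and from -0.12 to 0.17 for Vmp1. At 2000 UMIs a cell, genes with 204 CPM in fewer than 4 of 14 sums were not tested, Itga2b and Pf4 among them.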
